A study of Rattus norvegicus with 8 samples.

Results

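The genes of the cell division cycle, DNA replication and cell cycle arrest were followed in the enamel organ of the rat incisor as it passed from the secretory to the maturation stage. They were chosen by the start of their gene symbol on the array: the A, B, D and E cyclins, the cyclin-dependent kinases (Cdk) and the Cdkn1 and Cdkn2 families of their inhibitors, the Cdc2, Cdc6, Cdc7, Cdc20 and Cdc25 genes, the minichromosome maintenance (Mcm) and origin recognition complex (Orc) genes, the E2f factors, the Aurora, Polo-like and Bub kinases, the Gadd45 genes, and Pcna, Mki67, Rrm2, Tyms and Rb1. The rule also names Cdc45, Top2a and Rrm1, which were not analysed here. The rule used no measured value. It took 66 genes of the 21558 gene symbols on the array, measured by 70 of its 22523 probes.

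The continuously growing incisor of the rat renews its enamel organ from dividing cells at the apical end. Ameloblasts leave the cell cycle before they begin to secrete enamel matrix, and the organ around them also holds other layers, such as the stratum intermedium and later the papillary layer with its blood vessels. Entry into S phase depends on cyclin D with Cdk4 or Cdk6, which phosphorylate the retinoblastoma protein and free E2F factors, while mitosis depends on cyclin B with Cdk1. The Cdkn1 and Cdkn2 proteins block these kinases, and the Gadd45 proteins are stress and differentiation sensors that can bind Cdk1, Pcna and a kinase upstream of p38 and JNK.

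The study took enamel organs from the lower incisors of 4 untreated male Wistar Hannover rats, 4 weeks of age, and each rat gave both a secretory-stage and a maturation-stage RNA sample. Samples with the same replicate number were taken as those of 1 rat. Each of the 8 RNA samples was hybridised to a RatRef-12 BeadChip, an array of bead-bound probes with 1 colour. The question put to the data was which of these genes differed between the 2 stages. Because the enamel organ was removed whole from the tooth surface, it also holds cells other than ameloblasts, and fewer cells of a type cannot be told apart from less RNA per cell.

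The summed deposited signal of an array was 11881691 to 12046793 in the secretory stage and 13355073 to 16122665 in the maturation stage, and a member was read from a median of 42.5 to 44 beads per array. All values below are log2 signals after background correction and quantile normalization, and a difference is the maturation mean minus the secretory mean on that scale. The stage labels matched the ameloblast markers: Klk4, the protease of enamel maturation, was 7.57 higher by its brighter-changing probe (adjusted p = 4.8e-08) and Mmp20, the protease of enamel secretion, fell by 4.03 (adjusted p = 2.6e-06, limma with Benjamini-Hochberg adjustment over all probes). Of 5 secretory marker probes, 4 were lower past the adjusted p, but Amelx (-0.53) did not pass and Ambn fell by only 0.36. Of 8 maturation marker probes, 7 were higher, but Cftr (-0.04) did not pass. For 3 maturation samples (replicates 2, 3 and 4) 1 of the label fields gives the other stage, while their title, description and tissue fields give maturation, and 8 of 8 arrays correlated more closely with the other arrays of the stage in their title. Maturation replicates 1 and 4 stood apart in their level of the secretory transcript Enam, an enamel matrix protein. Its log2 signal was 9.08 and 8.22 on these 2 arrays, 5.17 and 5.53 on maturation replicates 2 and 3, and 11.94 to 12.03 on the secretory arrays. Enam was detected on all 4 maturation arrays, and the arrays said below to have carried Enam are the 2 with the higher signal.

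Of the 70 member probes, 11 were detected on no array (detection p of 0.05 or more), 59 on at least 1 array and 48 on all 8. At an adjusted p below 0.05, 9 members had risen by the maturation stage, against 12.8% of all probes, 20 had fallen, against 14%, and 41 did not pass. In both directions 26.9% of all probes passed, and over the probes detected on at least 4 arrays 50.6% passed, against 29 of 54 such members, so the share of members that passed was close to that of other detected genes. At the study's threshold, which adds a change of at least 1.8-fold, 5 members were called higher, against 4.6% of all probes, and 2 were called lower, against 3.15%. In all 7 of 70 were called, against 7.75%. Among the probes detected on at least 4 arrays the background was 9.19% called higher and 6.27% called lower, against 5 and 2 of 54 members. The stages did not overlap for 30 of the 70 members, against 27.7% of all probes, and for 28 of the 54, against 49.5%. The median difference of the members was -0.13, against -0.01 for all probes. Among the probes detected on at least 4 arrays the medians were -0.21 for members and -0.05 for all.

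All 3 Gadd45 genes and 3 of the 5 Cdk inhibitor probes rose, while 4 of 7 probes for B cyclins, Cdk1, Cdc20 and Cdc25 and 5 of 8 for mitotic kinases and the spindle checkpoint fell. Of the probes detected on at least 4 arrays, 4 of 5 and 5 of 6 of these mitotic groups fell, and 3 of 12 of the group for origin recognition, Cdc6, Cdc7 and Mcm genes, where 26.6% of all such probes fell and 24% rose. Of the 9 that rose, 8 did so by 0.28 to 1.55, and Cdkn2b, detected on no secretory array, by at least 1.18 (median of the 9 0.89, with Cdkn2b at its fitted value or at that bound), and the 20 that fell did so by -0.25 to -1.53 (median -0.55). Each of the 29 members kept its direction within 4 of 4 rats. Where the stages do not overlap, as for all 9 that rose and 18 of the 20 that fell, this follows from the lack of overlap. Of those that fell, Cdc2a and Mki67 were the ones whose stages overlapped. Without maturation replicates 1 and 4, the maturation arrays with the higher Enam signal, 7 members rose and 13 fell past the adjusted p, with 4 called higher and 4 called lower. Gadd45a, Gadd45b, Cdkn2b, Plk4 and Mcm4 stayed called, Bub1 (-0.87), Cdc25b (-0.87) and Cdkn1c (0.86) joined them, and Gadd45g and Cdkn1a dropped out. Of the 29 members, 13 no longer passed there (Ccnb2, Bub1b, Plk1, Cdc2a, Tyms, Mcm2, E2f5, E2f8, Cdk7, Cdk5rap2, Pcna, Gadd45g and Cdkn1a), with adjusted p of 0.058 to 0.18 in a fit of fewer arrays. Another 4 members passed there and not otherwise, Orc4l as higher (0.27) and Cdc25a (-0.29), Cdk2ap1 (-0.47) and Gadd45gip1 (-0.56) as lower. By the methods' t-test 7 of the 29 no longer passed after adjustment (Cdkn1a, Cdkn1c, Cdc2a, Bub1b, E2f8, Mki67 and Mcm2), with adjusted p of 0.056 to 0.095. With median scaling 12 that fell kept their sign but did not pass (Ccnb2, Cdc2a, Aurkb, Plk1, Bub1, Bub1b, Mki67, Tyms, Mcm2, Cdk4, E2f5 and E2f8), 2 more turned sign (Cdk5rap2 and Cdk7), and 6 of the 20 still passed as lower. Without normalization between arrays 17 of the 20 did not pass as lower, 8 of them with a turned sign.

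**Figure D1:**
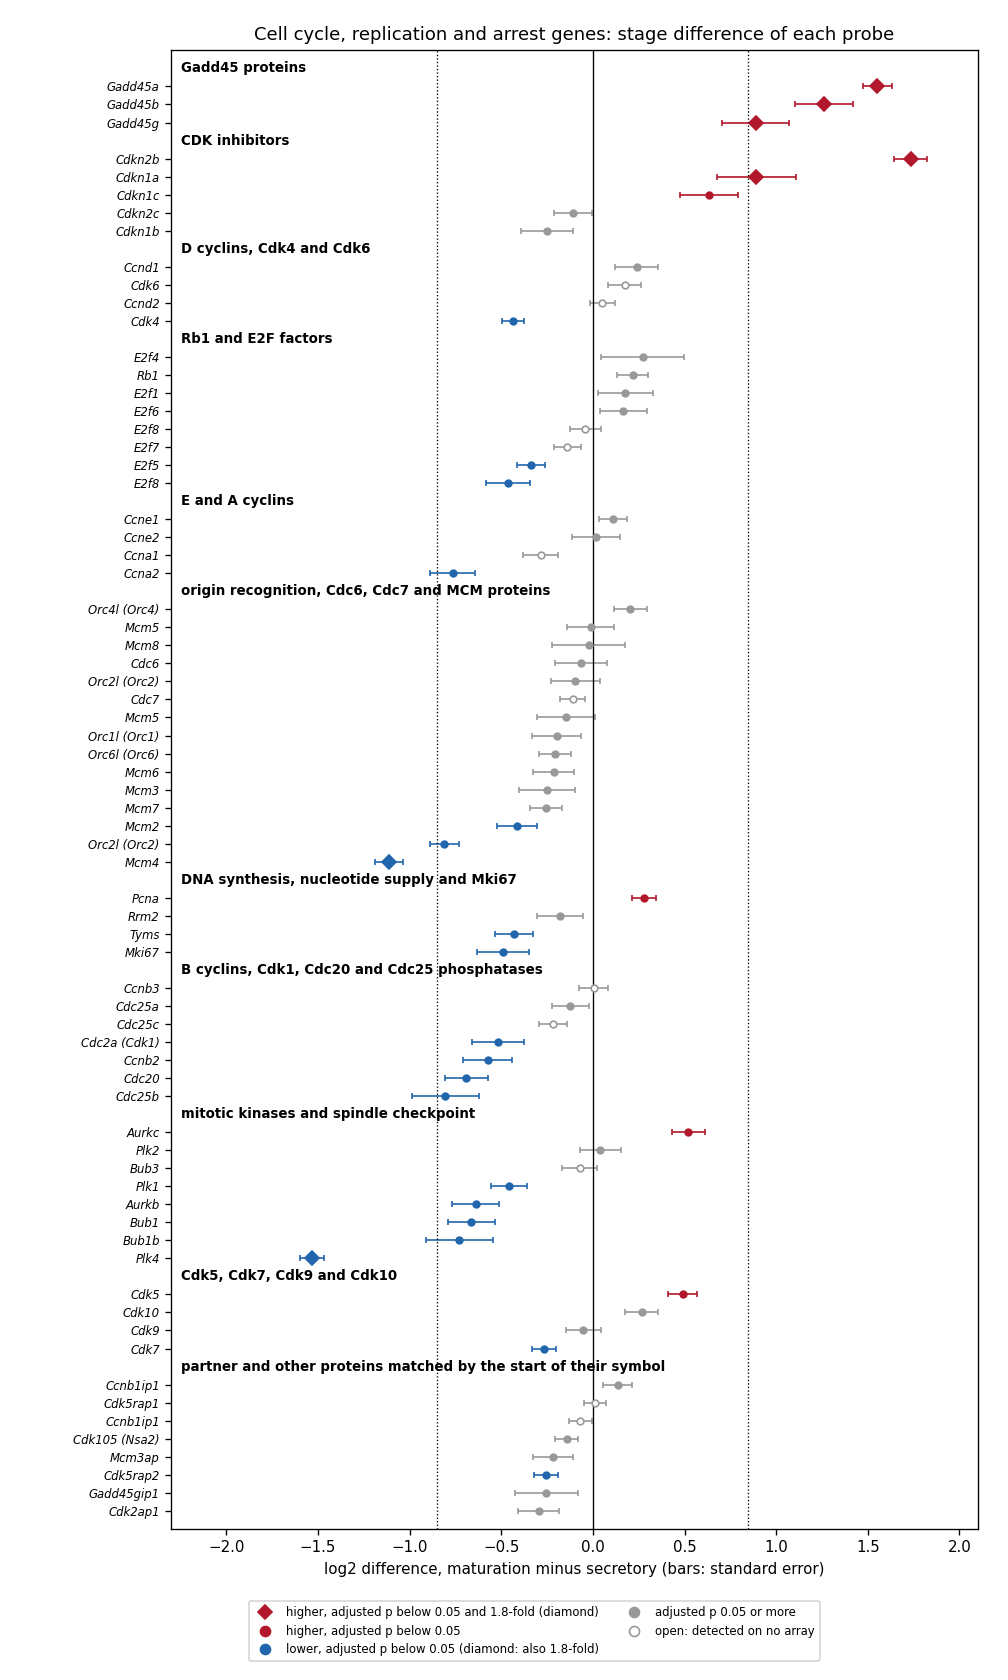
Log2 difference between the stages (x axis, maturation minus secretory) of each of the 70 member probes, grouped by role, with the standard error as bars and dotted lines at 1.8-fold. The red diamonds of the Gadd45 genes, Cdkn2b and Cdkn1a lie right of the upper line and the blue diamonds of Plk4 and Mcm4 left of the lower one, while most probes of the replication and mitosis groups lie between 0 and -0.81. Without any normalization between arrays the blue points of Cdc2a, Cdk4, Cdk5rap2, Cdk7, E2f5, Mcm2, Plk1 and Tyms move to the right of 0.

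The Gadd45 genes rose as a family. Gadd45a, the member best known for its induction by DNA damage, had log2 signals of 8.34, 8.09, 8.28 and 8.27 in secretory replicates 1 to 4 and of 9.84, 9.81, 9.62 and 9.91 in maturation replicates 1 to 4. The stages were far apart relative to their spread, with a difference of 1.55 (SE 0.08, adjusted p = 8.4e-07, limma), or 2.93-fold. Gadd45b, which TGF-beta and NF-kappaB signalling are known to induce, had secretory signals of 7.60, 7.17, 7.32 and 6.91 and maturation signals of 8.88, 8.36, 8.44 and 8.37. It was higher in each maturation array than in any secretory array, by 1.26 (SE 0.16, adjusted p = 0.00025, limma). Gadd45g, which is induced during differentiation in several tissues, had secretory signals of 8.67, 7.78, 7.96 and 7.94 and maturation signals of 9.03, 8.95, 8.74 and 9.19. Its difference was 0.89 (SE 0.18, adjusted p = 0.0048, limma), with secretory replicate 1 close to the lowest maturation array, and within rat 1 the difference was 0.36 against 0.78 to 1.25 in the other rats. Gadd45g stood at 1.85-fold, just above the threshold, and fell under 1.8-fold when maturation replicate 4 (0.82), secretory replicate 2 (0.79), secretory replicate 3 (0.847) or secretory replicate 4 (0.84) was left out, without background correction (0.71) or with an offset of 50 (0.81). Without the 2 maturation arrays that carried Enam it was 0.76 higher and no longer passed (adjusted p = 0.060). Gadd45gip1, a partner protein taken by the same symbol rule, was -0.25 apart between the stages and did not pass (adjusted p = 0.37), but it passed as lower without those 2 arrays (-0.56, adjusted p = 0.017, limma).

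The promoters of the 3 Gadd45 genes are shown because the genes rose together and each holds a CCAAT box, the letters recognised by the NF-Y factor, at a like distance from the start of transcription. The sequences are from RefSeq on the GRCr8 build, read on the strand of the gene, 5′ to 3′, up to the base before the start of transcription, and the capitals mark CCAAT. The box begins 94 bases before the start in Gadd45a, 131 and 92 bases before it in Gadd45b, and 99 bases before it in Gadd45g. CCAAT on either strand was found in 37.7% of all promoters, so its presence does not set these genes apart.
Gadd45a, chr4:97486800-97486909, minus strand: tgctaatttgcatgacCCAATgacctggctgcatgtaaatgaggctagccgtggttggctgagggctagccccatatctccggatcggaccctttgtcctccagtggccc
Gadd45b, chr7:9430719-9430858, minus strand: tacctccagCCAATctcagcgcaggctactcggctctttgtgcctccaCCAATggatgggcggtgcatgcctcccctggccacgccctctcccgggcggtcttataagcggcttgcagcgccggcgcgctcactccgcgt
Gadd45g, chr17:13530352-13530461, minus strand: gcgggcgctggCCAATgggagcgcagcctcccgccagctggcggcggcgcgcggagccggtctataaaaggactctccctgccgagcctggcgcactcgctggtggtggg

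Of the Cdk inhibitors, Cdkn2b changed most. It encodes p15, an inhibitor of Cdk4 and Cdk6 that TGF-beta is known to induce. Its signals were 4.50, 4.62, 4.39 and 4.44 in the secretory arrays, where it was not detected on any array, and 6.26, 6.41, 6.22 and 6.0015 in the maturation arrays, where it was detected on all 4. The fitted difference was 1.73 (adjusted p = 8.7e-07, limma), and without background correction it was 0.68, under 1.8-fold, though still past the adjusted p. Set against the lowest signals counted as detected on the secretory arrays, the level in the maturation stage was at least 2.26-fold higher. Cdkn1a encodes p21, an inhibitor of Cdk2 that DNA damage induces. It had secretory signals of 5.89, 5.23, 5.65 and 6.17 and maturation signals of 6.44, 6.69, 6.32 and 7.06. The highest secretory array lay just under the lowest maturation array, and the difference was 0.89 (SE 0.21, adjusted p = 0.011, limma), or 1.86-fold. The call rested on single arrays: the difference was 0.75 without maturation replicate 4 and 0.72 without secretory replicate 2, both under 1.8-fold, as were 0.39 without background correction, 0.60 with an offset of 50 and 0.73 with normexp fitted without negative controls. It was 0.77 without the 2 arrays that carried Enam (adjusted p = 0.068), and by the methods' t-test its adjusted p over all probes was 0.056.

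Cdkn1c encodes p57, an inhibitor found in differentiating cells. It had secretory signals of 5.69, 5.82, 6.18 and 5.97 and maturation signals of 6.42, 6.60, 6.96 and 6.23. It rose by 0.64 (SE 0.16, adjusted p = 0.014, limma), which is below 1.8-fold. Without the 2 arrays that carried Enam the difference was 0.86 and with median scaling 0.88, both past 1.8-fold, and by the methods' t-test it did not pass (adjusted p = 0.060). Cdkn1b, which encodes p27, the inhibitor associated with quiescence, had secretory signals of 8.21, 7.79, 7.88 and 7.71 and maturation signals of 7.92, 7.62, 7.34 and 7.72. These overlapped, and the difference of -0.25 did not pass (adjusted p = 0.26). Cdkn2c, which encodes p18, was detected on 1 array of each stage, with secretory signals of 5.04, 5.03, 5.05 and 4.72 and maturation signals of 4.92, 4.82, 5.02 and 4.65 (adjusted p = 0.55). The inhibitor group was therefore split between 3 genes that rose and 2 that did not pass.

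**Figure D2:**
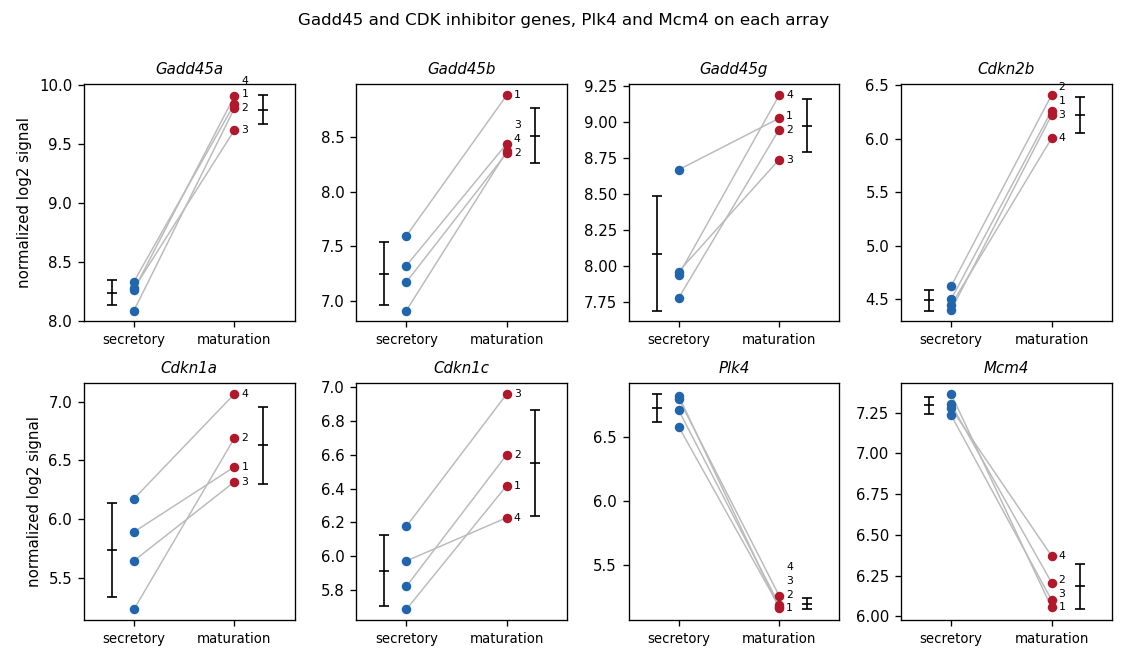
Normalized log2 signal (y axis) on each array for the Gadd45 genes, 3 Cdk inhibitors, Plk4 and Mcm4, with blue points for the secretory stage and red for the maturation stage, grey lines joining the samples of 1 rat (numbered), and the mean and SD of each stage in black. The stages do not overlap in any of the 8 panels, and the narrowest gaps are those of Cdkn1a, Cdkn1c and Gadd45g.

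Macrophage and leukocyte markers were higher in the stage in which the Gadd45 genes, Cdkn1a, Cdkn1c and Cdkn2b were higher. Of 12 probes for such markers, 8 were higher past the adjusted p and 7 of them at least 1.8-fold, led by Cd68 (2.19), Cd74 (1.999) and Cd14 (1.94). The log2 of their summed normalized signal was 11.96 to 12.22 on the secretory arrays and 13.40 to 13.77 on the maturation arrays. The lymphocyte markers Cd3e (0.05) and Ms4a1 (-0.43) did not pass. Of 7 endothelial probes, 3 passed and all 3 were higher, Cldn5 by 1.11 and Vwf by 0.88 among them, the latter under 1.8-fold without maturation replicate 3 (0.76), secretory replicate 1 (0.79) or secretory replicate 4 (0.78) and without background correction (0.84), with a summed level of 12.22 to 12.54 in the secretory and 12.65 to 12.99 in the maturation stage. Of 8 fibroblast probes, 3 were higher and 1 lower, none by 1.8-fold, with a summed level of 16.16 to 16.37 and 16.44 to 16.53. None of 4 erythroid probes passed, with a summed level of 15.34 to 15.82 and 15.55 to 15.75. The nearest was Alas2, of haem synthesis in red cell precursors, at -1.07 without overlap (adjusted p = 0.058, limma), and it was called lower with normexp without negative controls (-0.91), with the detection filter (-1.07) and without secretory replicate 1 (-1.33) or 4 (-1.23). Cdh1, the epithelial cadherin and the 1 general epithelial marker measured, fell by 1.17 (adjusted p = 0.0038, limma). It was -0.83 with median scaling, under 1.8-fold, and -0.63 without normalization between arrays, where it did not pass (adjusted p = 0.12). The part of these cells in the rise of the Gadd45 and Cdk inhibitor genes was not tested.

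At the entry to S phase the picture was mixed. Ccnd1 encodes cyclin D1, the partner of Cdk4 and Cdk6. Its signals were 9.64, 9.85, 10.12 and 9.76 in the secretory stage and 10.15, 10.14, 10.21 and 9.84 in the maturation stage, so the stages overlapped and the difference of 0.24 did not pass (adjusted p = 0.19, limma). It passed as higher without secretory replicate 3 (0.33, adjusted p = 0.045), with median scaling (0.55) and without normalization between arrays (0.75). Cdk4 had secretory signals of 11.10, 11.07, 11.08 and 11.17 and maturation signals of 10.77, 10.63, 10.67 and 10.60. It fell by 0.44 on the log2 scale (SE 0.06, adjusted p = 0.00038, limma), with no overlap, although the sign turned to 0.02 without normalization between arrays. Ccnd2 and Cdk6 were detected on no array of either stage.

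The retinoblastoma gene Rb1 had secretory signals of 7.43, 7.45, 7.56 and 7.69 and maturation signals of 7.61, 7.65, 7.87 and 7.86. It was 0.22 higher, which did not pass (adjusted p = 0.11) but did with the rat as a block (adjusted p = 0.039, limma), with cyclic loess (0.29) and with median scaling (0.55), and it was higher in 4 of 4 rats. E2f1, an activator of S phase genes, had secretory signals of 4.75, 5.12, 5.44 and 4.71 and maturation signals of 5.17, 5.29, 5.07 and 5.19, with detection on 2 secretory and 4 maturation arrays and no difference past the threshold (0.18, adjusted p = 0.50). E2f4, a repressor that acts in resting cells, differed by 0.27 (adjusted p = 0.49), and with the rat as a block the adjusted p was 0.019. Its signal was 5.09 to 5.88 in the secretory and 5.32 to 6.12 in the maturation stage, higher in 4 of 4 rats. E2f5, another repressor of resting cells, fell by 0.34 on the log2 scale (adjusted p = 0.00815, limma), except that it was 0.19 higher without normalization between arrays. E2f8, a repressor of late S phase, fell by 0.46 (adjusted p = 0.017, limma) by the probe detected on all arrays, while its second probe was detected on none. E2f6 differed by 0.17 (adjusted p = 0.45), and E2f7 was detected on no array.

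Of the cyclins of S phase, cyclin A2 fell and cyclins E1 and E2 did not pass. Ccna2 had secretory signals of 7.84, 7.80, 8.19 and 8.36 and maturation signals of 7.19, 7.26, 7.32 and 7.35. The maturation arrays lay close together below all secretory arrays, with a difference of -0.76 (SE 0.12, adjusted p = 0.0011, limma), and the fall was largest in rats 3 (-0.87) and 4 (-1.005). Without normalization between arrays the difference of Ccna2 was -0.23 and did not pass (adjusted p = 0.18, limma). Ccne1 had secretory signals of 4.99, 5.20, 5.21 and 5.10 and maturation signals of 5.33, 5.26, 5.28 and 5.07, which overlapped (0.11, adjusted p = 0.40). Ccne2 differed by 0.02 (adjusted p = 0.96). Ccna1, the germ cell cyclin A, was detected on no array.

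The genes that license and fire replication origins moved unevenly. The origin recognition complex and Cdc6 load the Mcm2 to Mcm7 helicase on DNA, and the helicase then unwinds it in S phase. Of 15 probes for these genes, 3 fell and 12 did not pass, and the median difference was -0.20. Mcm4 had secretory signals of 7.36, 7.30, 7.23 and 7.28 and maturation signals of 6.05, 6.21, 6.10 and 6.37. It fell by 1.11 on the log2 scale (SE 0.08, adjusted p = 4.9e-06, limma), or 2.16-fold, in 4 of 4 rats. It came out under 1.8-fold without background correction (-0.60), with an offset of 50 (-0.84), with median scaling (-0.81) and without normalization between arrays (-0.61), each still past the adjusted p. Mcm2, of the same hexamer, had secretory signals of 8.66, 8.82, 9.12 and 8.93 and maturation signals of 8.33, 8.65, 8.54 and 8.35. The highest maturation array fell just short of the lowest secretory array, and the difference was -0.42 (adjusted p = 0.018, limma), which turned to 0.14 without normalization between arrays. Mcm2 did not pass with cyclic loess (-0.33, adjusted p = 0.055) or without maturation replicate 4 (-0.375, adjusted p = 0.056, limma).

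The other subunits of the hexamer showed smaller differences that did not pass. Mcm3 differed by -0.25 (adjusted p = 0.32), Mcm6 by -0.21 (adjusted p = 0.22) and Mcm7 by -0.25 (adjusted p = 0.061). With the rat as a block Mcm7 passed (adjusted p = 0.040), as it did without maturation replicate 3 (-0.31) or secretory replicate 1 (-0.32), and Mcm6 passed without secretory replicate 1 (-0.31). Both were lower in 4 of 4 rats after quantile normalization. Without normalization between arrays both passed as higher, Mcm7 by 0.30 (adjusted p = 0.024) and Mcm6 by 0.33 (adjusted p = 0.033, limma). The log2 signal of Mcm3 was 5.51 to 6.18 in the secretory and 5.31 to 5.77 in the maturation stage, that of Mcm6 was 9.07 to 9.51 and 8.97 to 9.35, and that of Mcm7 was 8.48 to 8.77 and 8.32 to 8.60. The better detected probe of Mcm5 ranged from 5.45 to 5.94 and from 5.20 to 5.91, with a difference of -0.15 (adjusted p = 0.61). The second Mcm5 probe was detected on 1 array. Mcm4 had the largest difference of the 6 subunits, and the differences between subunits were not tested.

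Orc2l, which encodes the Orc2 subunit, had secretory signals of 9.004, 9.21, 9.09 and 9.15 and maturation signals of 8.20, 8.35, 8.47 and 8.18 by the probe detected on all arrays. The stages were well apart, by -0.81 (SE 0.08, adjusted p = 5.1e-05, limma), or 1.75-fold, which lies just short of the 1.8-fold limit, and it passed that limit without maturation replicate 3 (-0.87). Its second probe, detected on 2 secretory and 1 maturation arrays, differed by -0.10 and did not pass. Orc1l, for Orc1, had secretory signals of 4.97, 5.21, 5.59 and 5.46 and maturation signals of 4.98, 5.06, 5.33 and 5.07 (adjusted p = 0.38). Orc4l was 0.21 higher (adjusted p = 0.13) and passed with median scaling (0.54) and without the 2 arrays that carried Enam (0.27), and Orc6l was -0.20 apart (adjusted p = 0.13, and 0.049 with the rat as a block, limma). Without normalization between arrays Orc6l passed as higher instead (0.35, adjusted p = 0.011, limma). Cdc6 differed by -0.06, and Cdc7, the kinase that fires origins, was detected on no array.

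DNA synthesis genes did not move together. Pcna, the sliding clamp of the DNA polymerases, which also serves in repair, had secretory signals of 12.03, 11.96, 12.19 and 12.18 and maturation signals of 12.39, 12.36, 12.40 and 12.32. It rose by 0.28 (SE 0.07, adjusted p = 0.012, limma), or 1.21-fold, without overlap, and did not pass without the 2 arrays that carried Enam (0.29, adjusted p = 0.062). Tyms, which makes thymidylate, had secretory signals of 7.59, 7.71, 7.63 and 8.03 and maturation signals of 7.43, 7.36, 7.30 and 7.15, and it fell by 0.43 on the log2 scale (adjusted p = 0.012, limma), except that it was 0.10 higher without normalization between arrays and did not pass without the 2 arrays that carried Enam (adjusted p = 0.062). Rrm2, the subunit of ribonucleotide reductase that is made in S phase, had secretory signals of 7.38, 7.51, 7.72 and 7.94 and maturation signals of 7.37, 7.56, 7.62 and 7.29. These overlapped, and the difference of -0.18 did not pass (adjusted p = 0.39). Without normalization between arrays Rrm2 passed as higher (0.36, adjusted p = 0.048, limma).

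Mki67 encodes Ki-67, the common marker of cycling cells. Its signals were 6.30, 5.84, 6.19 and 6.49 in the secretory stage and 5.98, 5.56, 5.59 and 5.74 in the maturation stage. Each rat showed the fall, but maturation replicate 1 lay above secretory replicate 2, and the difference of -0.49 passed narrowly (SE 0.14, adjusted p = 0.030, limma). It no longer passed when maturation replicate 2, 3 or 4 or secretory replicate 1, 3 or 4 was left out, with adjusted p of 0.061 to 0.084.

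At mitosis, Cdc2a encodes Cdk1, the kinase of mitotic entry, and Ccnb2 its partner cyclin B2. Cdc2a had secretory signals of 9.72, 9.45, 9.75 and 10.19 and maturation signals of 9.47, 9.18, 9.18 and 9.21. Maturation replicate 1 lay above secretory replicate 2, and the difference was -0.52 (SE 0.14, adjusted p = 0.024, limma), which turned to 0.02 without normalization between arrays. It did not pass when maturation replicate 2, 3 or 4 was left out, with adjusted p of 0.062 to 0.064. Ccnb2 had secretory signals of 10.32, 10.11, 10.39 and 10.78 and maturation signals of 9.87, 9.84, 9.97 and 9.63. It fell without overlap by 0.57 on the log2 scale (-0.57, SE 0.13, adjusted p = 0.0097, limma), most in rat 4, and did not pass without the 2 arrays that carried Enam (adjusted p = 0.085) or with median scaling (adjusted p = 0.10).

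Cdc20, the activator of the anaphase-promoting complex, had secretory signals of 7.78, 7.69, 7.96 and 8.11 and maturation signals of 7.35, 7.18, 7.30 and 6.94. After quantile normalization it fell in each rat, by 0.69 (-0.69, SE 0.12, adjusted p = 0.0015, limma). Without normalization between arrays the difference of Cdc20 was -0.16 and did not pass (adjusted p = 0.40, limma). Cdc25b, a phosphatase that switches Cdk1 on, fell by 0.80 (SE 0.18, adjusted p = 0.0084, limma), from 5.67 to 6.25 in the secretory stage to 4.66 to 5.47 in the maturation stage, where it was detected on 3 arrays. That is 1.75-fold, and it passed 1.8-fold when maturation replicate 1 or 3 or secretory replicate 1 or 4 was left out (-0.85 to -0.92). Cdc25a differed by -0.12 and did not pass, except without the 2 arrays that carried Enam (-0.29, adjusted p = 0.027, limma), and Cdc25c and Ccnb3 were detected on no array.

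The kinase Plk4, which starts the duplication of centrioles, fell more than any other member. Its signals were 6.82, 6.58, 6.71 and 6.80 in the secretory stage and 5.16, 5.18, 5.19 and 5.26 in the maturation stage. The arrays of each stage agreed within a narrow range, and the difference was -1.53 (SE 0.07, adjusted p = 2.9e-07, limma), or 2.89-fold. Without background correction it was -0.63, under 1.8-fold, though still past the adjusted p. Aurkb, the Aurora kinase of the chromosomal passenger complex, had secretory signals of 8.17, 8.31, 8.33 and 8.55 and maturation signals of 8.03, 7.66, 7.69 and 7.42. It fell by 0.64 (SE 0.13, adjusted p = 0.0043, limma), least in rat 1. Plk1, the Polo-like kinase of mitotic entry, had secretory signals of 6.58, 6.85, 6.9997 and 6.79 and maturation signals of 6.26, 6.47, 6.42 and 6.24. Its difference was -0.46 (adjusted p = 0.0055, limma), it did not pass without the 2 arrays that carried Enam (adjusted p = 0.070), and it turned to 0.02 without normalization between arrays.

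The Bub kinases of the spindle checkpoint fell. Bub1 had secretory signals of 7.66, 7.75, 7.84 and 8.01 and maturation signals of 7.46, 7.04, 6.86 and 7.26, a difference of -0.66 (adjusted p = 0.0038, limma). Bub1b, which encodes BubR1, had secretory signals of 6.26, 6.60, 6.64 and 7.04 and maturation signals of 6.05, 5.94, 6.16 and 5.47, a difference of -0.73 (adjusted p = 0.015, limma), and without secretory replicate 1 it passed 1.8-fold (-0.85). Bub1b did not pass by the methods' t-test (adjusted p = 0.065), without the 2 arrays that carried Enam (adjusted p = 0.080) or with median scaling (adjusted p = 0.069). Aurkc, the Aurora kinase best known from germ cells, was the exception in this group. It rose without overlap, from 7.07 to 7.49 in the secretory stage to 7.68 to 7.85 in the maturation stage (0.52, SE 0.09, adjusted p = 0.0017, limma), and passed 1.8-fold with median scaling (0.86). Plk2 (0.04) was detected on 1 array and Bub3 on none.

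The size of the mitotic fall was also read within each rat, from 1 array of each stage, and differences between rats were not tested. The median difference of the 6 detected probes for mitotic kinases and the spindle checkpoint was -0.20 in rat 1, -0.65 in rat 2, -0.61 in rat 3 and -0.94 in rat 4. For the 5 detected probes for B cyclins, Cdk1, Cdc20 and Cdc25 it was -0.39, -0.28, -0.56 and -0.98. Rat 4 showed the largest fall in both groups. Maturation replicate 1 was the highest of its stage for Aurkb, Bub1, Cdc20, Cdc2a and Mki67. It was the lowest for Plk4, Aurkc and Ccna2, and neither for Ccnb2, Cdc25b, Bub1b and Plk1.

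**Figure D3:**
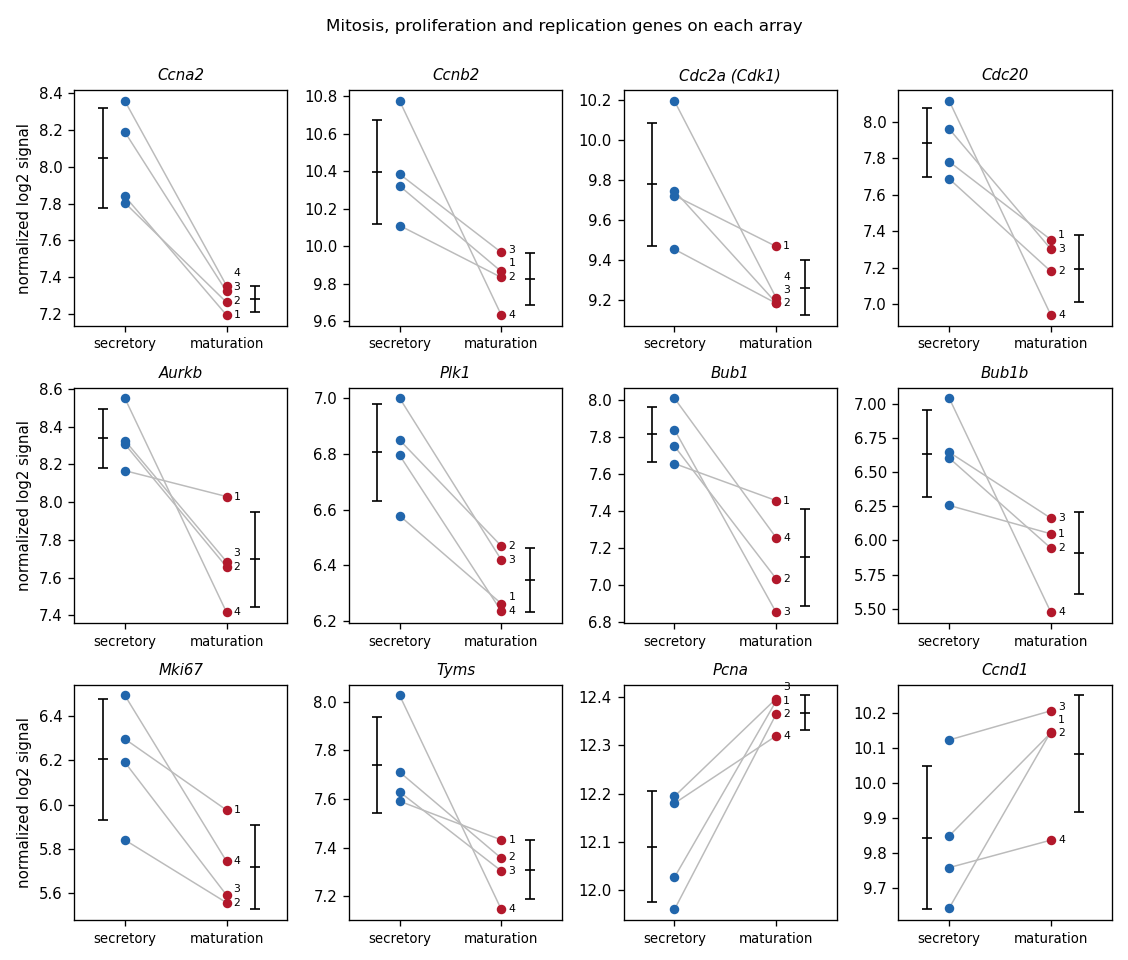
Normalized log2 signal (y axis) on each array for 12 genes of mitosis, proliferation and replication, drawn as in the plot of the arrest genes: blue points for the secretory stage, red for the maturation stage, grey lines for 1 rat and the mean and SD in black. The mitotic genes, Mki67 and Tyms fall along each line, Pcna rises, and Ccnd1 overlaps between the stages. Without normalization between arrays the mean differences of Cdc2a, Plk1 and Tyms are slightly above 0.

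The promoters of the members that fell were searched for the letters of the cell cycle genes homology region (CHR), TTTGAA, through which the DREAM complex and B-Myb act on mitotic genes, for CCAAT, and for the E2F letters TTTCCCGC, TTTCGCGC, TTTGGCGC and TTTGCCGC, each on both strands of the 300 bases from 250 before to 50 after the start. RefSeq promoters were at hand for 47 of the 66 genes, matched by gene. TTTGAA was found in 9 of 15 promoters of members that fell (60.0%), in 1 of 8 of those that rose (12.5%) and in 2 of 24 of those that did not pass (8.33%), where 18.1% of all 27457 promoters held it. The 9 were Bub1b, Ccnb2, Cdc20, Cdc2a, Cdk5rap2, Mcm2, Mki67, Plk1 and Plk4. TTTGAA and CCAAT occurred together in 5 of the 15 (Ccnb2, Cdc20, Cdc2a, Mki67 and Plk1), that is 33.3%, against 7.25% of all promoters. E2F letters were in 10 of the 47 member promoters (21.3%, against 2.25% of all), 3 of them in members that fell (Cdc2a, Mcm2 and Tyms) and 7 in members that did not pass, such as Mcm3, Mcm5, Mcm6 and Mcm7. The median GC content was 57.7% for the members that fell, 62.0% for those that rose, 60.7% for those that did not pass and 52.3% for all promoters. These shares describe letters and no test was run on them.

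The promoters of 4 genes that fell are shown because each holds both TTTGAA and CCAAT close together before the start. Plk1, not shown, holds CCAAT 38 bases before the start and TTTGAA at base 7 after it. They are from RefSeq on the GRCr8 build, on the strand of the gene, 5′ to 3′. Those of Ccnb2, Cdc20 and Cdc2a end 1 base before the start and that of Mki67 ends 81 bases before it. Capitals mark the CHR letters, the CCAAT box, which reads ATTGG where it lies on the other strand, and in Cdc2a also the E2F letters TTTCGCGC. In Ccnb2, 3 CCAAT boxes begin 134, 101 and 68 bases before the start, with TTTGAA 43 bases before it. In Cdc20 TTTGAA stands 51 bases before the start between CCAAT boxes at 86 and 41 bases. In Mki67 the second TTTGAA and the last ATTGG overlap and appear as 1 run of capitals.
Ccnb2, chr8:79981659-79981798, minus strand: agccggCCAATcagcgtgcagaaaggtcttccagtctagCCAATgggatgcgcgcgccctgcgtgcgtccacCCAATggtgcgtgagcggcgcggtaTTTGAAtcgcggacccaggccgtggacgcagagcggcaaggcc
Cdc20, chr5:137255800-137255899, minus strand: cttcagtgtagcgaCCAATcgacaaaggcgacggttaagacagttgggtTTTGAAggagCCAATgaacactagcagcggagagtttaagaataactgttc
Cdc2a (Cdk1), chr20:19265153-19265292, plus strand: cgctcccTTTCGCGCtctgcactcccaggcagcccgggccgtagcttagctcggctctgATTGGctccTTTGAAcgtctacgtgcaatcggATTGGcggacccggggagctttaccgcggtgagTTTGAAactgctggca
Mki67, chr1:199952674-199952793, minus strand: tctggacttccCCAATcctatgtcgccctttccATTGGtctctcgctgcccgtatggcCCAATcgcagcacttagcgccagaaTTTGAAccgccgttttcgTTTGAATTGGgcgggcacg

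The Cdk genes that act outside the division cycle went different ways. Cdk5, the kinase of postmitotic cells and neurons, rose from 9.14 to 9.30 in the secretory stage to 9.52 to 9.85 in the maturation stage (0.49, SE 0.08, adjusted p = 0.0012, limma). Cdk7, the Cdk-activating kinase that also acts in transcription, fell by 0.27 on the log2 scale (adjusted p = 0.014, limma), but was 0.06 higher with median scaling and 0.26 higher without normalization. Cdk9, the elongation kinase, differed by -0.05, and Cdk10 was detected on 2 maturation arrays with a difference of 0.27 (adjusted p = 0.058). Of the 8 probes taken through the start of their symbol for partner and other proteins, only that of Cdk5rap2, a centrosome protein, passed (-0.25, adjusted p = 0.015, limma), and it too was 0.06 higher with median scaling and 0.26 higher without normalization. Ccnb1, Ccnd3, Cdk2, Cdkn2a and Aurka were not analysed here.

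Other genes of the same processes, taken from 3 lists that share no probe with the members, were set beside them. Of 30 probes for other mitosis genes, 16 fell and 1 rose, with a median of -0.41, where 14% of all probes fell and 12.8% rose. All 17 were among the 27 detected on at least 4 arrays, so that 59.3% of these fell and 3.7% rose, against 26.6% and 24% of all such probes. Those called at 1.8-fold were Stmn1, a microtubule destabiliser (-1.33, adjusted p = 0.00018), Kif23, a kinesin of cytokinesis (-0.96, adjusted p = 0.00034), and Hmmr, a spindle protein (-0.85, adjusted p = 0.0014, limma). Of these, Stmn1 stayed called with median scaling, with an offset of 50 and without background correction, and none did without normalization between arrays (-0.82, -0.43 and -0.36). Kif23 was -0.62, -0.84 and -0.70 in the former 3 settings and Hmmr -0.56, -0.64 and -0.46, and Hmmr also came out under 1.8-fold without maturation replicate 3 (-0.84) or 4 (-0.82), without both maturation arrays that carried Enam (-0.80), without secretory replicate 4 (-0.72), with cyclic loess (-0.79) and with normexp without negative controls (-0.74). Ube2c, Nusap1, Kif11, Kif20a, Aspm, Tpx2 and the spindle checkpoint kinase Ttk also fell, by -0.58 to -0.84, but none of these 7 passed without normalization between arrays (-0.03 to -0.35), nor Tpx2 with median scaling (-0.23). The others of the 16 that fell also lost their pass. Ect2 (-0.35 and -0.15), Kif15 (-0.37 and -0.17), Kif4 (-0.11 and 0.09) and Cdca8 (-0.06 and 0.14) did so with median scaling and without normalization. Cenpf (-0.15) and Racgap1 (-0.24) did so without normalization. Incenp, a scaffold of the Aurora B complex, rose by 0.51 (adjusted p = 0.024, limma), and did not pass by the methods' t-test (adjusted p = 0.083) or without maturation replicate 2 or 3 or secretory replicate 1 or 2 (adjusted p of 0.055 to 0.066). Foxm1, the factor that drives mitotic genes, differed by -0.10 and did not pass.

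Of 31 probes for other replication and S phase genes, 9 fell and 2 rose, with a median of -0.14. Of the 26 detected on at least 4 arrays 30.8% fell, close to the 26.6% of all such probes, and 7.69% rose, against 24%. Gmnn encodes geminin, which holds back the licensing of origins. Its signals were 8.57, 8.64, 8.74 and 8.95 in the secretory stage and 9.84, 10.08, 10.11 and 9.92 in the maturation stage, so it rose without overlap by 1.27 (adjusted p = 9.8e-06, limma). Pola2, a subunit of the primase complex, rose by 1.12 (adjusted p = 8.5e-05), or 0.67 without background correction, and Rpa3, of the single-strand binding protein RPA, fell by 0.95 (adjusted p = 3.0e-05, limma), or -0.65 with median scaling and -0.45 without normalization, under 1.8-fold. Of the other subunits of the same complexes, Prim1 fell by 0.24 (adjusted p = 0.0081, limma), a sign that turned with median scaling (0.05) and without normalization (0.25), Prim2 was 0.52 higher without passing (adjusted p = 0.055, and 0.0050 with the rat as a block, limma), the probes of Pola1 were -0.25 and -0.15 apart and did not pass, Rpa2 differed by 0.22 without passing, and Rpa1 was detected on no array.

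Of 27 probes for other arrest and quiescence genes, 6 rose and 8 fell, with a median of 0.02. Of the 23 detected on at least 4 arrays 26.1% rose and 34.8% fell, against 24% and 26.6% of all such probes. The genes that rose were led by Trp53inp1 (1.76, adjusted p = 2.9e-05), Sesn1 (1.59, adjusted p = 9.3e-07), Phlda3 (1.58, adjusted p = 4.0e-06) and Sesn3 (1.56, adjusted p = 1.7e-05, limma). Without background correction Trp53inp1 was 0.81, under 1.8-fold. Trp53inp1 acts in autophagy and cell death, the sestrins Sesn1 and Sesn3 restrain mTORC1, and Phlda3 restrains Akt. Mdm2, a ubiquitin ligase, fell by 0.42 (adjusted p = 0.011, limma), but did not pass with median scaling (-0.10) and turned to 0.10 without normalization, and Ccng1 did not pass (-0.27, adjusted p = 0.21). The antiproliferative genes Btg1 (-1.14, adjusted p = 8.5e-07), Btg2 (-1.03, adjusted p = 3.0e-05) and Tob1 (-0.68) fell, although Btg2 was under 1.8-fold with median scaling (-0.70) and Tob1 did not pass without normalization (-0.14), Btg3 of the same family rose by 0.41 (adjusted p = 0.0013), and the detected probe of Tob2 was 0.20 higher without passing (adjusted p = 0.20). A fall was also seen for Klf4 (-1.33, adjusted p = 2.5e-06, limma), a factor of epithelial differentiation.

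**Figure D4:**
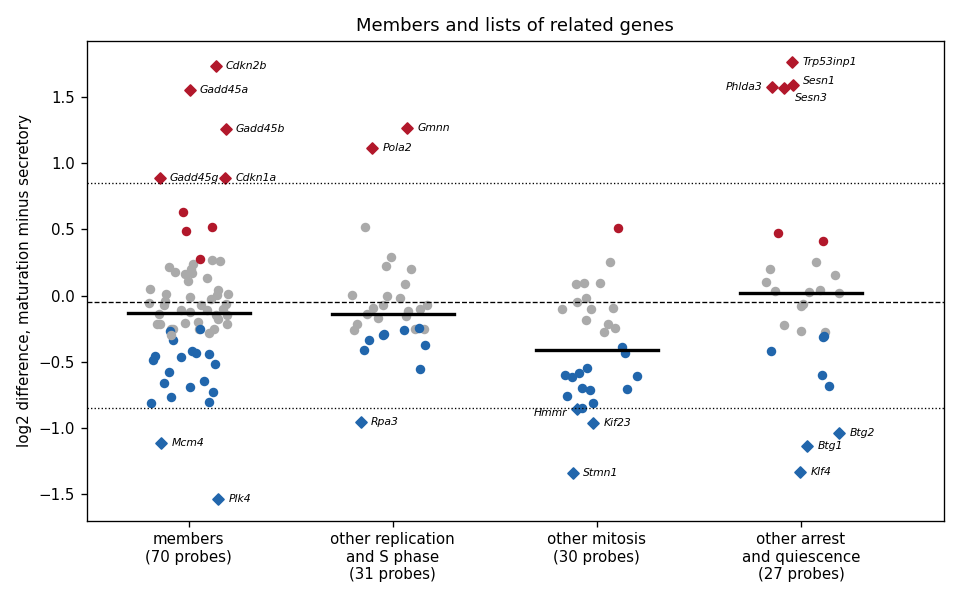
Log2 difference between the stages (y axis, maturation minus secretory) of each probe of the members and of the 3 lists of related genes, with black bars at the list medians, a dashed line at the median of all probes detected on at least 4 arrays and dotted lines at 1.8-fold (red rose and blue fell past the adjusted p, diamonds also 1.8-fold). The mitosis list lies lowest, with a median of -0.41, while the arrest list spreads to both sides.

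The direction of small differences depended on how the arrays were put on 1 scale. The maturation arrays were brighter, and the median difference of the probes detected on at least 4 arrays was -0.05 after quantile normalization, 0.18 with median scaling and 0.38 without normalization. The median of the 54 detected members lay below that median by 0.163 after quantile normalization (-0.163) and by less, -0.0963, with median scaling or without normalization, which differ from each other by a constant and so give the same gap. Without background correction, 5 of the 7 calls came out under 1.8-fold while still past the adjusted p (Cdkn1a, Cdkn2b, Gadd45g, Mcm4 and Plk4).

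**Figure D5:**
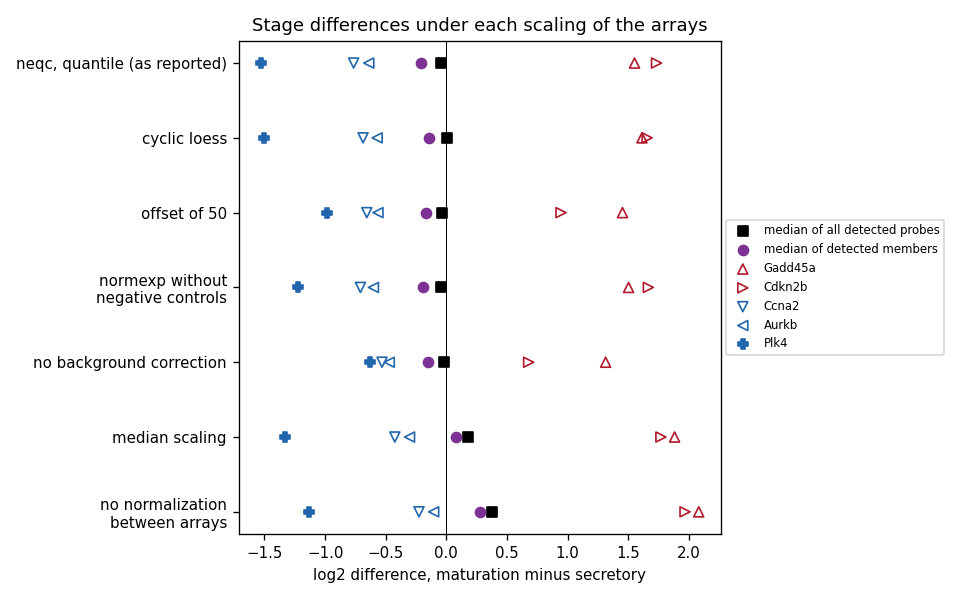
Log2 difference between the stages (x axis, maturation minus secretory) under each scaling of the arrays (y axis) for the median of all detected probes, the median of the detected members and 5 members. The whole set of points moves right with median scaling and without normalization, and the gap between the medians is narrower there.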

How the data were processed

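Each of 4 rats gave 1 secretory and 1 maturation sample. The deposited table holds, per probe and array, a mean bead intensity that the authors had neither background-corrected nor normalized, a p-value of detection over negative-control beads, the count of beads and a bead standard error of the signal. The bead summary software was not given in the sources used here. Background was corrected, and the arrays were quantile-normalized, by neqc (limma 3.58.1, R 4.3.3, offset 16), and log2 values of all 22523 probes were fitted with lmFit and eBayes, with Benjamini-Hochberg adjustment over all probes. The members, roles and lists were chosen with earlier results of these data known. Values on each array are given for called members and for anchor genes of the cycle, and of the 3 lists of related genes the 3 called genes with the largest change in each direction are named, Sesn3 and other list genes being added after their values were seen. The methods state that each rat gave both samples, samples with the same number were taken as a pair, and deviations of same-numbered samples from their stage means correlated by 0.195, 0.129, 0.219 and 0.234 over 11233 probes. An exact two-sided permutation test of 4 against 4 arrays cannot go below 0.0286. Alternatives were the background correction, offset, scaling, detection filter, fold threshold, the methods' t-test, blocking by rat and leaving out each array. Leaving out maturation replicates 1 and 4 and reading members against detected probes were added after seeing the data. Promoters and symbols are from RefSeq (GRCr8), and 69 of 70 probes matched a current gene. The number of arrays, 4 per stage, limits the precision. Some genes of the lists are not reported here.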

Additional observations from a re-analysis of the deposited data

Results flagged for a closer look

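In 5 of 78 sets of 4 arrays examined, 1 array lay apart from the other 3 of its stage by the Dixon test, where chance gives about 3.9. Gadd45b had a log2 signal of 8.885 in maturation replicate 1, above 8.36 to 8.44 in the others. Cdc2a had 9.47 in maturation replicate 1, above 9.18 to 9.21. Ccnd1 had 9.84 in maturation replicate 4, below 10.14 to 10.21. Cdkn2c had 4.72 in secretory replicate 4, below 5.03 to 5.05, and a probe of Mcm5 had 5.16 in maturation replicate 2, above 4.65 to 4.71, both near the limit of detection.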

How the results depend on the processing

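Of the members, 5 were called higher, and the number was 2 without background correction, 3 with an offset of 50 or a 2-fold threshold, 8 without normalization between arrays and 3 to 5 with each array left out. Of the members, 2 were called lower, and the number was 0 without background correction, 1 with an offset of 50, with median scaling or without normalization, 9 at 1.5-fold, 2 to 4 with each array left out (4 without maturation replicate 3 or secretory replicate 1) and 4 without maturation replicates 1 and 4. The number higher past the adjusted p, 9, was 26 without normalization, 17 of them gained. The number lower, 20, was 11 with median scaling (6 of the 20 and 5 others, all detected on no array), 3 without normalization (all of the 20) and 13 without maturation replicates 1 and 4 (10 of the 20 and 3 others), where fewer samples entered. The median difference of the members was -0.0625 without background correction, -0.0709 with an offset of 50, -0.10 with cyclic loess, 0.0103 with median scaling, 0.21 without normalization and -0.21 with the detection filter. In the replication list 1 gene was called higher without background correction, and 0 were called lower with median scaling or without normalization. In the mitosis list 1 was called lower without background correction, with an offset of 50 or with median scaling, 0 without normalization, where 1 was called higher, and 2 to 5 with each array left out (5 without secretory replicate 1 or 2). Only members past the adjusted p as reported or in the named setting are given here. Among them the sign turned with median scaling for Cdk5rap2 (0.0591) and Cdk7 (0.0640). Without normalization it turned for Cdc2a (0.0195), Cdk4 (0.0249), Cdk5rap2 (0.26), Cdk7 (0.26), E2f5 (0.19), Mcm2 (0.14), Mcm6 (0.33), Mcm7 (0.30), Plk1 (0.0235), Rrm2 (0.36) and Tyms (0.10), along with a median of 0.38 for all detected probes. It also turned there for Orc6l (0.35), Cdk9 (0.46) and Cdk105, now named Nsa2 (0.34), which passed as higher.

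With the rat as a block, the paired fit gave 5 members called higher and 2 lower, and 11 higher and 23 lower past the adjusted p. It added Rb1, E2f4, Mcm7, Orc6l and, among the 23 lower though detected on no array, Ccna1, and lost none, and it changed no other call of a member. Calls over all probes were 59.3% higher, against 77.6% with median scaling and 87.2% without normalization. By the methods' t-test, at the methods' threshold after Benjamini-Hochberg adjustment, 4 members were called higher and 2 lower. The cause of these changes was not tested.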
